A study of Mus musculus with 6 samples.

Results

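The mitosis and spindle genes described here are a list of 40 genes given by name, which covers the cyclins and kinases of mitotic entry, the spindle assembly checkpoint, the kinetochore, the spindle motors, cytokinesis and anaphase proteolysis. A gene was represented by the array row that names it alone, and by the brightest such row where there was more than 1, and 39 of the 40 were measured in this way among 30098 genes in all. The cyclin gene Ccnb1 was not analysed here. The rule that chose the genes uses their names and no signal, but the list was proposed with earlier results of these arrays known.

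Total RNA was measured on Clariom D arrays, whose probes cover the mouse transcriptome with its coding and non-coding RNAs, and the deposited value of a row is a log2 signal, so that a difference of 1 is a 2-fold difference in signal. After pre-differentiation there were 3 arrays of R1 mouse embryonic stem cell (mESC) aggregates that had been kept in ES complete medium with leukaemia inhibitory factor (LIF) for 7 days and then with BMP-4 and bFGF for 3 days. Before pre-differentiation there were 3 arrays of the same kind of aggregates at the end of the 7 days. In both groups the cells were enclosed in core-shell microcapsules with an alginate hydrogel shell, and R1 is a single established mESC line, so no difference between genetic backgrounds was covered. The pre-differentiation medium lists neither LIF nor the Knockout serum of the ES medium. Its base is regular DMEM in place of Knockout DMEM, and other supplements of the ES medium are not listed for it either. The growth factors, the loss of LIF and serum, these other changes of medium and the 3 added days of culture therefore cannot be told apart. The labels call the arrays biological replicates but do not say whether they came from separate cultures, so the p-values measure only the spread between these arrays. The arrays measure whole aggregates, and fewer dividing cells cannot be told apart from less RNA of these genes per cell.

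A cell that enters mitosis activates Cdk1 bound to a B-type cyclin, condenses its chromosomes and builds a spindle whose microtubules attach to the kinetochores. The spindle assembly checkpoint holds back the anaphase-promoting complex until every chromosome is attached, after which securin and cyclin B are degraded and the cell divides. Most of these genes are transcribed together in late G2 and M phase. In many of them the promoter holds a cell cycle homology region (CHR), bound by the MuvB complex with B-Myb, and a CCAAT box, bound by NF-Y. Mouse ES cells are known for rapid cycles with short gap phases.

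Array medians over all rows were between 4.17 and 4.21 after and between 4.30 and 4.47 before pre-differentiation, and over all rows the log2 change had a median of -0.18. The first replicate after pre-differentiation stood apart from the others of its group. Over 10 marker genes of naive pluripotency, the median log2 difference from the before mean was -0.47 in that array, against -4.34 in after replicate 2 and -3.87 in after replicate 3. Over 10 markers of parietal endoderm the same differences were 3.92, 4.82 and 5.68, and 7 of these markers passed the test as higher. Over 7 markers of cardiac muscle the median log2 change was 0.79 and 0 passed the limma test at an adjusted p under 0.05 (0 also at an unadjusted p under 0.05). Their median differences from the before mean were 0.13, 1.67 and 0.48 in after replicates 1, 2 and 3. All 39 mitosis genes had a mean signal above the background level of 4.24 in both groups, against 17431 of all 30098 genes.

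In after replicates 2 and 3, nearly the whole list lay below the signal of every before array, whereas after replicate 1 lay near the before arrays. The median log2 difference from the before mean over the 39 genes was -0.11 in after replicate 1, -2.10 in after replicate 2 and -2.28 in after replicate 3. The same medians were 0.10, 0.04 and -0.20 in before replicates 1, 2 and 3. In these medians, the gap between after replicate 1 and the other after arrays was thus larger than the spread of the before arrays. A median over the list hides differences in single genes that go both ways. Before replicate 3 minus the mean of before replicates 1 and 2 ran from -1.83 (Plk1) to 1.83 (Spc25), and before SDs from 0.03 (Bub3) to 1.16 (Spc25). The gap in the medians went with the gap in the pluripotency markers given above. The median differences were 3.29, 7.39 and 5.14 in after replicates 1, 2 and 3 over 8 visceral endoderm markers, and 1.47, 9.64 and 5.17 over 6 mesenchyme markers. The visceral endoderm markers did not move together. Afp, Ttr, Apoa1, Apob and Rbp4 had their lowest after signal in replicate 1, whereas Cubn, Amn and Hnf4a had their highest there. For Cubn the differences were 7.20, 2.06 and 1.11. Markers of other cell types thus also differed among the after arrays. Their part in the result was not tested.

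The mean was lower after pre-differentiation for 38 of the 39 genes (97.4%), against 68.3% of all genes, and Mki67 was the gene with the higher mean. The median log2 change was -1.54, or -1.36 relative to the median of all rows, and single genes ranged from -3.53 (Spc24) to 1.10 (Mki67). At least a 2-fold lower mean was found for 28 genes, and at least a 4-fold lower mean for 9 genes (Ccnb2, Cdk1, Bub1, Bub1b, Mad2l1, Cenpa, Spc24, Ect2 and Pttg1). The shares of all genes at these fold limits were not counted, so these counts have no reference. With all 6 arrays, 0 of the 39 genes passed limma's moderated test at an adjusted p under 0.05 in either direction, against 0.651% of all genes lower and 1.23% higher. The smallest adjusted p of the list was 0.0756 (Spc24). At an unadjusted p under 0.05, limma called 19 of the 39 lower and 0 higher, where 19.7% of all genes were lower and 11% higher. An equal-variance test per row, of the kind the study names for its other in vitro assays, called 6 lower at that unadjusted threshold and 0 after Benjamini-Hochberg adjustment.

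**Figure D1:**
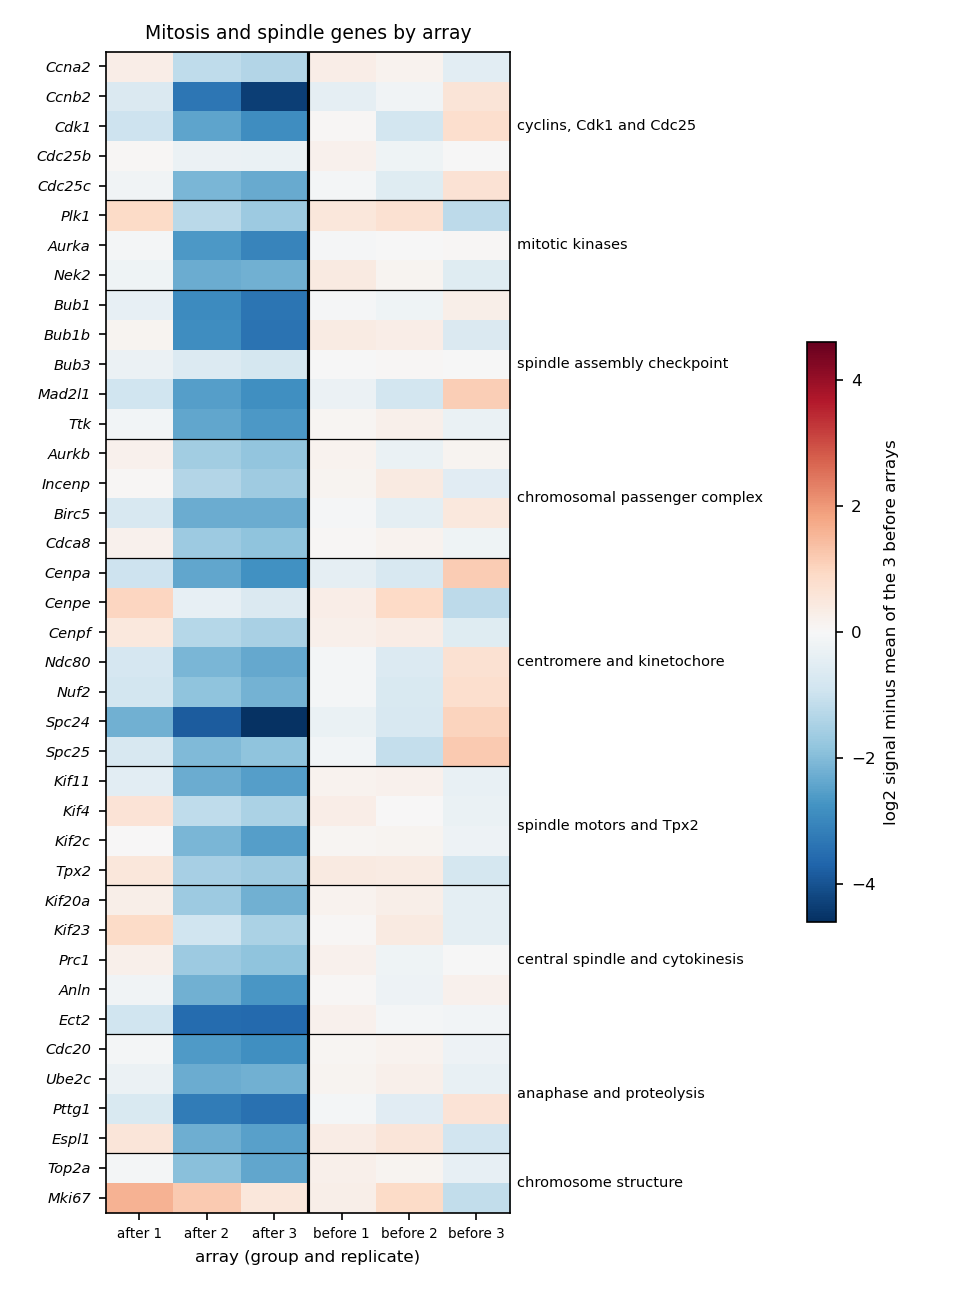
Log2 signal of the 39 mitosis and spindle genes (rows, grouped by role) in each array (columns) minus the mean of the 3 before arrays, with blue for lower and red for higher. After replicates 2 and 3 are blue in nearly all rows, with medians of -2.10 and -2.28, and after replicate 1 is pale, with a median of -0.11.

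Without after replicate 1, 26 of the 39 genes fell at an adjusted p under 0.05 from limma and 0 rose, against 7.49% of all genes lower and 7.81% higher in the same fit. The median log2 change of the list was then -2.22. In each of the fits that left out another array, 0 of the 39 genes passed. The call on the list thus turned on 1 array. That array was singled out after its values were seen, so the adjusted p-values without it, here and below, are descriptive only. After replicates 2 and 3 were both below every before array in 37 of the 39 genes (94.9%), against 42.3% of all genes, and both were above in 0, against 19.4%. Cenpe and Mki67 were the exceptions. All 3 after arrays were below all 3 before arrays in 14 genes (35.9%), against 28.2% of all genes, and above in 0, against 11.8%. After replicate 3 was below after replicate 2 in 36 of the 39 genes (92.3%), against 50.4% of all genes, with Nek2, Spc25 and Ube2c as the exceptions and a median difference of -0.26 on the log2 scale.

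**Figure D2:**
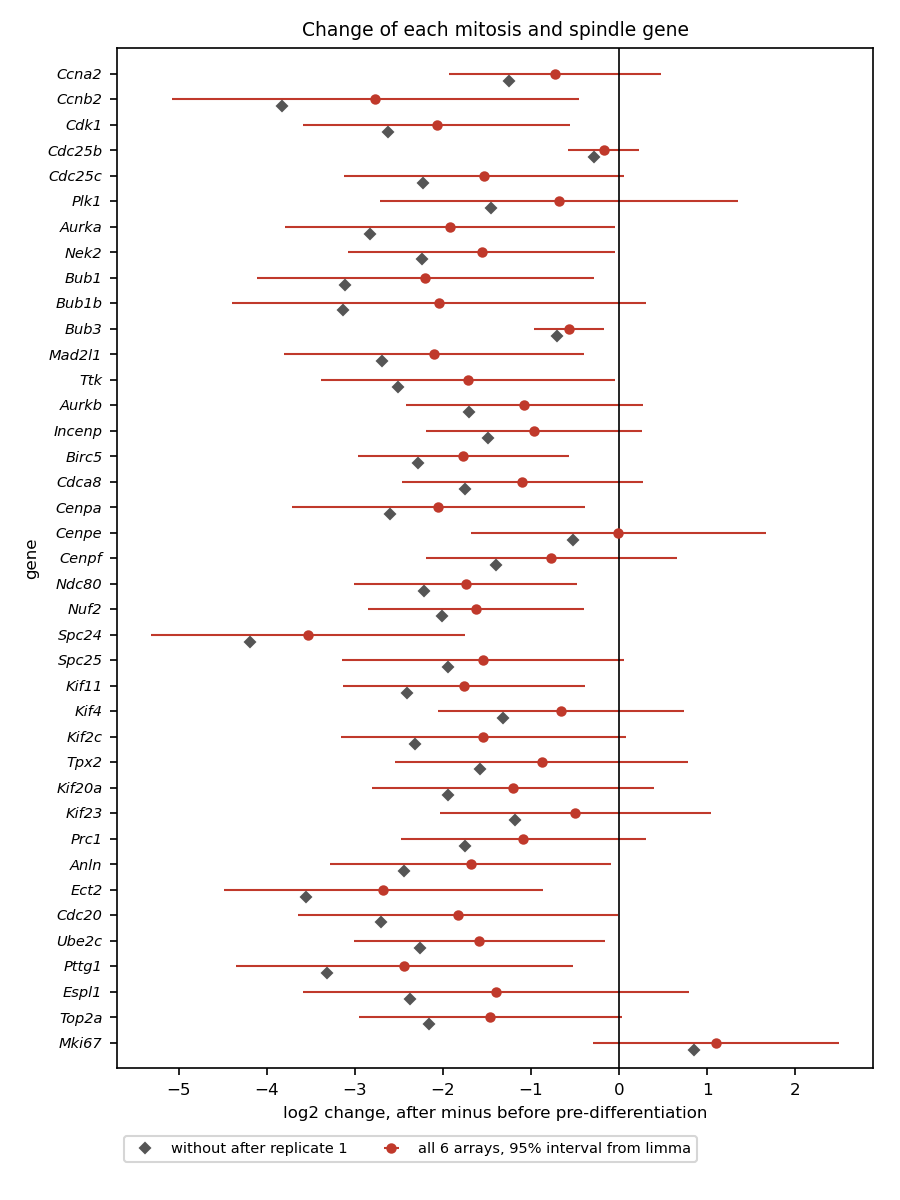
Log2 change of each gene, after minus before pre-differentiation, with all 6 arrays (circles, with the 95% interval from limma) and without after replicate 1 (diamonds). The interval excludes 0 for 19 of the 39 genes, and the diamonds lie left of the circles in every gene shown, Mki67 included.

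Promoter windows are shown for the 6 genes whose CHR lies nearest the transcription start, so that the elements shared by genes of different roles can be read. They were taken from the RefSeq promoter table (build GRCm38.p6), and each runs 5′ to 3′ on the strand of its gene over the 100 bases before and the first 20 bases after the start. Capitals mark the CHR (TTTGAA, or TTCAAA where it lies on the other strand) and the CCAAT box (CCAAT, or ATTGG on the other strand). The windows are chr7:80294351-80294470 (forward strand) for Prc1, chr1:189688067-189688186 (reverse strand) for Cenpf, chr9:61946780-61946899 (reverse strand) for Kif23, chr9:70421535-70421654 (reverse strand) for Ccnb2, chr9:83834589-83834708 (forward strand) for Ttk and chr10:69352893-69353012 (reverse strand) for Cdk1.
Prc1: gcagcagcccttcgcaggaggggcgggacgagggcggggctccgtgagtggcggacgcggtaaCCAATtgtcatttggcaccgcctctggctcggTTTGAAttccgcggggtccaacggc
Cenpf: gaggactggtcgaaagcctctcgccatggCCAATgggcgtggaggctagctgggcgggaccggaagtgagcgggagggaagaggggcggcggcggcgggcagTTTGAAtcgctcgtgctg
Kif23: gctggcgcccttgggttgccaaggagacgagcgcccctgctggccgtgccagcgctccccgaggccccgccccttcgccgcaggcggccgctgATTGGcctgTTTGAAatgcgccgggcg
Ccnb2: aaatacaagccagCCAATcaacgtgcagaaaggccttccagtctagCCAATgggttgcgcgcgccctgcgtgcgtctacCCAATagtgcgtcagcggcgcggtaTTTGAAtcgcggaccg
Ttk: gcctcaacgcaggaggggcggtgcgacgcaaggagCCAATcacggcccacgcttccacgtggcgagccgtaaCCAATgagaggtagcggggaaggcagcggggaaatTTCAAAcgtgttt
Cdk1: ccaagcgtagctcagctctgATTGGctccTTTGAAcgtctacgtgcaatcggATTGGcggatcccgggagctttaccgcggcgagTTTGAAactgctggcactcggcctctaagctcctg

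In these windows the CHR nearest the start began at position -15 in Cdk1, -5 in Prc1, 3 in Cenpf and Kif23, 5 in Ccnb2 and 8 in Ttk, where 1 is the first transcribed base and no base is numbered 0. A CCAAT box lay upstream of the CHR in all 6, and the first bases of the CHR and of the nearest box upstream were 9 bases apart in Kif23, 25 in Ccnb2, 32 in Prc1, 33 in Cdk1, 35 in Ttk and 73 in Cenpf. The window of Ccnb2 held 3 CCAAT boxes. The windows of Cdk1 and Ttk held 2 each, and that of Cdk1 also held another TTTGAA further upstream.

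The promoter table, which covers 250 bases before and 50 bases after each start, held 36 promoters of 33 genes of the list, Ccnb1 included. Ccna2, Cdc25c, Aurkb, Incenp, Spc24, Tpx2 and Kif20a were not searched. Searched on both strands, TTTGAA was found in 24 of the 33 genes (72.7%) and in 75.0% of their promoters, against 17.9% of all 32851 promoters of the table. CCAAT was found in 26 of the 33 genes (78.8%) and in 80.6% of the promoters, against 37.4% of all promoters. Both motifs occurred in 21 of the 33 genes (63.6%) and 66.7% of the promoters, against 6.95% of all promoters. An E2F core (TTCCCGC or TTGGCGC, the second of which can share bases with ATTGG) was found in 4 of the 33 genes and 13.9% of the promoters, against 6.81% of all promoters. The genes in which TTTGAA was not in the window were Ccnb1, Cdc25b, Nek2, Bub1, Mad2l1, Birc5, Cenpe, Nuf2 and Pttg1. Over the 36 promoters, of the 34 TTTGAA matches, 24 began between positions -30 and 50, and of the 64 CCAAT matches, 43 began between positions -100 and -1. Bub3, Prc1 and Ect2 have 2 overlapping promoters each, so a site there is counted in both. A match describes the letters of the window only and does not show binding.

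**Figure D3:**
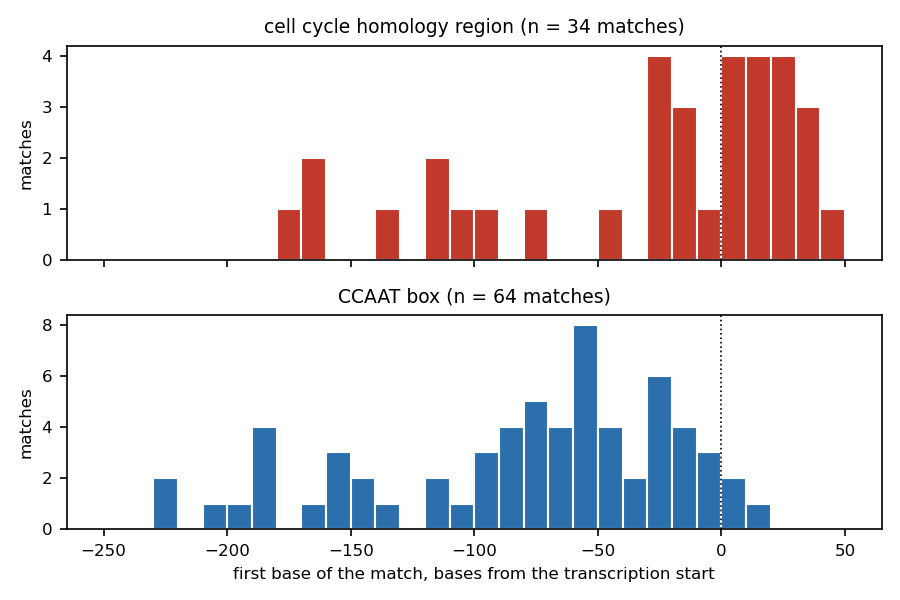
Number of motif matches in the promoters of the mitosis and spindle genes (y axis, matches per 10 bases) by the position of the first base of the match relative to the transcription start (x axis, bases, dotted line at the start). The 34 matches of the CHR lie mostly around the start, with a median first base of -10, and the 64 matches of the CCAAT box mostly upstream of it, with a median of -66.

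The median log2 change of the measured genes was -1.57 over the 24 genes with TTTGAA, from -2.77 (Ccnb2) to 1.10 (Mki67), and -1.70 over the 8 genes without it, from -2.44 (Pttg1) to -0.01 (Cenpe). Without after replicate 1 the medians were -2.28 and -2.26, and 18 of the 24 and 4 of the 8 genes fell at an adjusted p under 0.05 from limma, against 7.49% of all genes.

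Among the genes of mitotic entry, the B-type cyclin gene Ccnb2 had one of the largest differences and the phosphatase gene Cdc25b one of the smallest. Ccnb2, whose product activates Cdk1, had log2 signals of 13.44, 10.76 and 9.77 in after replicates 1, 2 and 3, against 13.69, 13.92 and 14.67 in before replicates 1, 2 and 3. Cdk1, the kinase that drives mitotic entry, had log2 signals of 11.93, 10.48 and 10.04 after and 12.96, 12.05 and 13.66 before. In both genes the 3 after arrays lay below the 3 before arrays, after replicate 1 was the highest of its group and before replicate 3 the highest of all. With 6 arrays the log2 change was -2.77 (standard error 0.94, limma adjusted p = 0.156) for Ccnb2 and -2.07 (standard error 0.62, adjusted p = 0.130) for Cdk1. Without after replicate 1 both genes fell, by 3.83 (limma adjusted p = 0.0110) and 2.63 (adjusted p = 0.0401) on the log2 scale.

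The A-type cyclin gene Ccna2, which acts in S phase and at mitotic entry, had log2 signals of 14.32, 12.85 and 12.65 after and 14.32, 14.18 and 13.51 before. Its groups overlapped, because after replicate 1 was as high as the highest before array, and its log2 change of -0.73 did not pass (limma adjusted p = 0.377, and 0.0614 without after replicate 1). Cdc25c and Cdc25b encode phosphatases that activate Cdk1. Cdc25c had a log2 change of -1.54 (limma adjusted p = 0.209) and fell by 2.22 without after replicate 1 (adjusted p = 0.0306). Cdc25b had log2 signals of 6.02, 5.68 and 5.67 after and 6.17, 5.78 and 5.95 before, and its log2 change of -0.18, with a 95% interval from -0.58 to 0.23, was close to the median of all rows and was 0.0062 once each array was centred on its median. After replicates 2 and 3 were below all before arrays in all 5 of these genes, against 42.3% of all genes.

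The mitotic kinases differed from one another in after replicate 1. Aurka, which encodes the centrosome kinase Aurora A, had log2 signals of 13.21, 10.69 and 10.28 after and 13.26, 13.31 and 13.38 before. The before arrays of Aurka lay close together (SD 0.06, n = 3), after replicate 1 was just below them and the other after arrays were far below. Aurka had a log2 change of -1.92 with 6 arrays (standard error 0.76, limma adjusted p = 0.192) and fell by 2.83 without after replicate 1 (adjusted p = 0.00303). Plk1, the Polo-like kinase of mitotic entry and spindle assembly, had log2 signals of 14.32, 12.20 and 11.77 after and 13.96, 14.14 and 12.22 before. Here after replicate 1 was the highest of all 6 arrays and before replicate 3 nearly as low as after replicate 2, and the log2 change of -0.68 (95% interval -2.71 to 1.36) did not pass in either fit (limma adjusted p = 0.615, and 0.222 without after replicate 1). Nek2, a kinase of centrosome separation, had a log2 change of -1.56 (limma adjusted p = 0.192) and fell by 2.24 without after replicate 1 (adjusted p = 0.0179).

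Of the roles with more than 3 genes, the spindle assembly checkpoint had the lowest median log2 change, at -2.05 over 5 genes, of which 4 were lower at an unadjusted p under 0.05 (19.7% of all genes) and 4 fell at an adjusted p under 0.05 from limma without after replicate 1 (7.49% of all genes). Bub1, a checkpoint kinase at the kinetochore, had log2 signals of 13.35, 10.83 and 10.37 after and 13.67, 13.51 and 13.98 before. The groups did not overlap, and the log2 change was -2.20 (standard error 0.78, limma adjusted p = 0.164). Bub1 fell by 3.12 without after replicate 1 (limma adjusted p = 0.00429). Bub1b encodes BubR1, a part of the inhibitor of the anaphase-promoting complex, and had log2 signals of 12.52, 9.52 and 8.98 after and 12.76, 12.68 and 11.71 before. Bub1b had the widest spread over the after arrays of all 39 genes (SD 1.91, n = 3), with after replicate 1 inside the before range and the other after arrays far below it.

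Mad2l1, which encodes the checkpoint protein Mad2, had log2 signals of 12.15, 10.53 and 10.26 after and 12.80, 12.24 and 14.20 before. Its log2 change was -2.10 (limma adjusted p = 0.150), and it was the checkpoint gene that did not pass without after replicate 1 (adjusted p = 0.0598), with a wide spread over its before arrays (SD 1.01, n = 3). Ttk, the checkpoint kinase Mps1, had a log2 change of -1.71 (limma adjusted p = 0.192) and fell by 2.51 without after replicate 1 (adjusted p = 0.00609). Bub3, the partner that brings Bub1 and BubR1 to kinetochores, had log2 signals of 14.99, 14.64 and 14.47 after and 15.25, 15.30 and 15.24 before. Its before arrays had the smallest spread of the list (SD 0.03, n = 3) and the groups did not overlap, but its log2 change of -0.57 (standard error 0.16, limma adjusted p = 0.123) was small beside those of the other checkpoint genes. Bub3 fell by 0.71 without after replicate 1 (adjusted p = 0.0389).

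The chromosomal passenger complex corrects wrong attachments and takes part in cytokinesis, and its 4 genes had a median log2 change of -1.09. Birc5, which encodes the subunit survivin, had log2 signals of 7.15, 5.62 and 5.62 after and 7.86, 7.44 and 8.39 before. It was the 1 gene of the complex whose groups did not overlap (25.0% of 4, near the 28.2% of all genes lower this way). Its log2 change was -1.77 (standard error 0.49, limma adjusted p = 0.117). Aurkb, the kinase of the complex, had log2 signals of 9.40, 7.63 and 7.39 after and 9.38, 8.90 and 9.36 before, with after replicate 1 slightly above the before range. The log2 change was -1.08 for Aurkb, -1.10 for Cdca8 (borealin) and -0.97 for Incenp, the scaffold (limma adjusted p between 0.269 and 0.275). Birc5, Aurkb and Cdca8 fell without after replicate 1, by 2.28, 1.71 and 1.75 on the log2 scale (limma adjusted p = 0.0164, 0.0136 and 0.00732), and Incenp did not pass (adjusted p = 0.0501).

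The Ndc80 complex binds microtubules at the kinetochore, and Cenpa encodes the centromeric histone. The 4 genes of the complex and Cenpa were lower in after replicates 2 and 3 than in every before array. That pattern held for 6 of the 7 centromere and kinetochore genes (85.7%), against 42.3% of all genes. Spc24 had the largest difference of the whole list. Spc24 had log2 signals of 10.31, 8.69 and 7.98 after and 12.21, 11.80 and 13.56 before. After replicate 1 was already more than 1 below the lowest before array on the log2 scale, which sets Spc24 apart from the genes in which it lay near the before arrays. The mean signal was 11.6-fold lower in the after arrays, with a log2 change of -3.53 (standard error 0.72, limma adjusted p = 0.0756), and Spc24 fell by 4.19 without after replicate 1 (adjusted p = 0.0185). Ndc80 had log2 signals of 11.37, 10.06 and 9.81 after and 12.08, 11.54 and 12.85 before. Its log2 change was -1.74 (limma adjusted p = 0.129), and it fell by 2.22 without after replicate 1 (adjusted p = 0.0367).

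The other subunits of the complex, Nuf2 and Spc25, had log2 changes of -1.62 and -1.54 and did not pass in either fit (limma adjusted p = 0.0632 and 0.153 without after replicate 1). Spc25 had the widest spread over the before arrays of the list (SD 1.16, n = 3). Cenpa had log2 signals of 8.65, 7.21 and 6.82 after and 9.19, 8.86 and 10.78 before. The groups of Cenpa did not overlap, but the before arrays spread widely (SD 1.03, n = 3) and its log2 change of -2.05 did not pass in either fit (limma adjusted p = 0.150, and 0.0686 without after replicate 1).

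Cenpe, a kinesin that moves chromosomes to the spindle equator, had log2 signals of 11.92, 10.55 and 10.23 after and 11.22, 11.83 and 9.70 before. Its highest array was an after array and its lowest a before array, so the groups overlapped fully. The log2 change was -0.01 (limma adjusted p = 0.993), with a 95% interval from -1.69 to 1.66 that leaves room for a change of 2-fold in either direction, and it was 0.17 with each array centred on its median. Cenpf, a large kinetochore protein, had a log2 change of -0.77 and did not pass in either fit (limma adjusted p = 0.425, and 0.0585 without after replicate 1).

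Of the spindle motors and Tpx2 (4 genes), only Kif11, the kinesin that pushes the spindle poles apart, had groups that did not overlap. That is 25.0%, near the 28.2% of all genes with every after array below every before array. Kif11 had log2 signals of 14.22, 12.43 and 12.16 after and 14.85, 14.88 and 14.36 before. Its log2 change was -1.76 (standard error 0.56, limma adjusted p = 0.142), and it fell by 2.40 without after replicate 1 (adjusted p = 0.00692). Kif2c, a kinesin that depolymerizes microtubules, had log2 signals of 12.46, 10.35 and 9.93 after and 12.56, 12.59 and 12.21 before. After replicate 1 lay among the before arrays of Kif2c, and the log2 change of -1.54 (limma adjusted p = 0.213) was -2.31 without it, at which Kif2c passed as lower (adjusted p = 0.00674). Kif4, a chromosome-bound kinesin, and Tpx2, which activates Aurora A on the spindle, had log2 changes of -0.66 and -0.88 (limma adjusted p = 0.480 and 0.433), with after replicate 1 above the before range in both. Kif4 fell by 1.31 without that array (limma adjusted p = 0.0328) and Tpx2 did not pass (adjusted p = 0.0928).

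**Figure D4:**
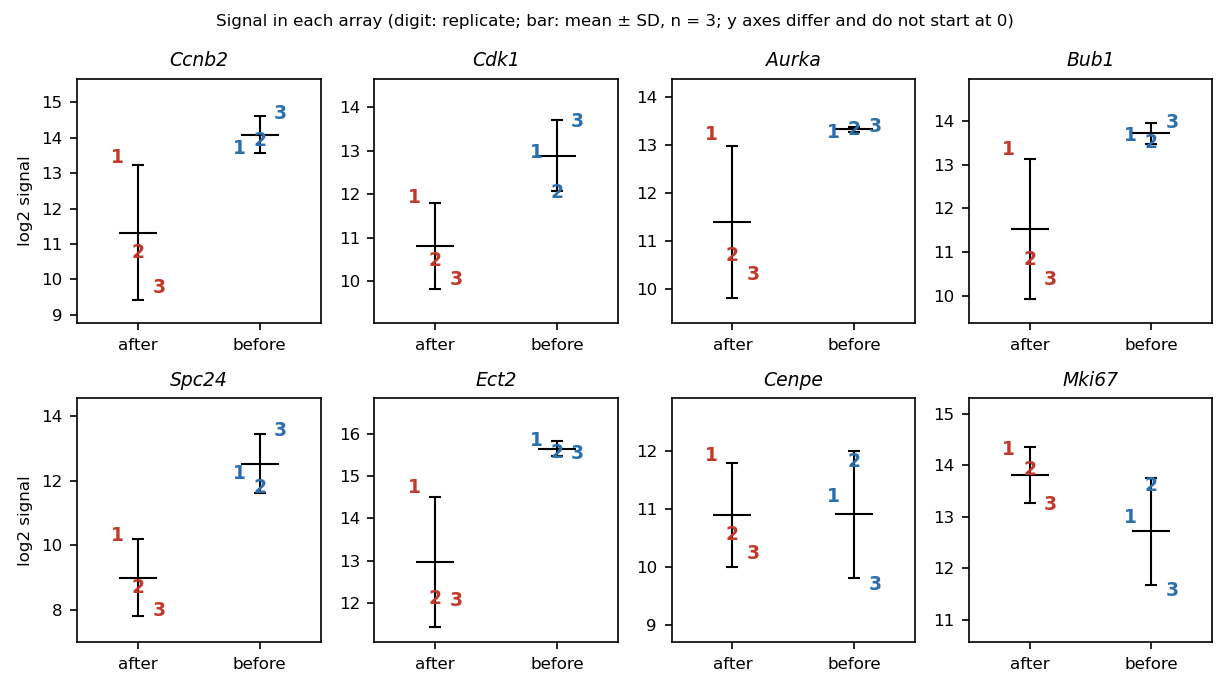
Log2 signal (y axis, one scale per gene) of 8 genes in the after and before arrays, with each replicate drawn as its number and the mean ± SD (n = 3) as a bar. In Ccnb2, Cdk1, Aurka, Bub1, Spc24 and Ect2 every after array lies below every before array and after replicate 1 is the highest after array. The groups overlap in Cenpe and Mki67. Groups without overlap were found in 14 of the 39 genes (35.9%), against 28.2% of all genes, so the 8 genes drawn do not stand for the list.

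Of the 5 genes of the central spindle and cytokinesis, Ect2, the exchange factor that activates RhoA at the cell equator, had the largest difference. Ect2 had log2 signals of 14.73, 12.10 and 12.07 after and 15.84, 15.56 and 15.53 before. The groups did not overlap, and the mean was 6.4-fold lower in the after arrays, with a log2 change of -2.68 (standard error 0.74, limma adjusted p = 0.117). Ect2 had the smallest adjusted p of the list without after replicate 1 (log2 change -3.56, limma adjusted p = 0.00178). Anln, which encodes the scaffold anillin of the contractile ring, had log2 signals of 12.64, 10.61 and 10.13 after and 12.86, 12.59 and 12.997 before, and fell by 2.44 without after replicate 1 (adjusted p = 0.00647).

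Prc1 bundles the microtubules of the central spindle, and its log2 signals were 13.47, 11.57 and 11.39 after and 13.44, 13.04 and 13.21 before. After replicate 1 of Prc1 lay just above the before range, and the log2 change of -1.09 (limma adjusted p = 0.278) was -1.75 without it (adjusted p = 0.00836). Kif20a and Kif23, both kinesins of the central spindle, had log2 changes of -1.20 and -0.50 (limma adjusted p = 0.293 and 0.627). Kif20a passed as lower without after replicate 1 (limma adjusted p = 0.0231) and Kif23 did not (adjusted p = 0.0891).

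The 4 genes of anaphase and proteolysis had a median log2 change of -1.71, and all 4 fell at an adjusted p under 0.05 from limma without after replicate 1, against 7.49% of all genes. Pttg1, which encodes securin, the inhibitor of separase, had log2 signals of 8.93, 6.41 and 6.20 after and 9.52, 9.09 and 10.24 before. Its groups did not overlap, with a log2 change of -2.44 (standard error 0.78, limma adjusted p = 0.143) and a fall of 3.31 without after replicate 1 (adjusted p = 0.0102). Cdc20, the activator of the anaphase-promoting complex, had log2 signals of 11.80, 9.27 and 9.07 after and 11.96, 12.04 and 11.63 before. After replicate 1 lay within the before range of Cdc20, and the log2 change of -1.83 (limma adjusted p = 0.197) was -2.71 without it (adjusted p = 0.00374). Ube2c, the ubiquitin-conjugating enzyme of the complex, had a log2 change of -1.59 and passed as lower without after replicate 1 (limma adjusted p = 0.00787). Espl1 encodes separase and had a log2 change of -1.40, and it also passed as lower without after replicate 1 (limma adjusted p = 0.0431).

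Top2a and Mki67, both widely read as markers of proliferating cells, ran in opposite directions. Top2a, the topoisomerase that disentangles sister chromatids, had log2 signals of 15.002, 13.15 and 12.70 after and 15.32, 15.21 and 14.72 before. Mki67, which encodes the chromosome-coating protein Ki-67, had log2 signals of 14.30, 13.91 and 13.23 after and 12.98, 13.60 and 11.57 before. The mean of Top2a was lower after pre-differentiation (log2 change -1.46, limma adjusted p = 0.205) and that of Mki67 higher (log2 change 1.10, adjusted p = 0.276), neither past the threshold with 6 arrays. Without after replicate 1, Top2a fell by 2.16 (limma adjusted p = 0.0124), whereas Mki67 had a log2 change of 0.85 and did not pass (adjusted p = 0.429). In Mki67 the after and before groups overlapped, and before replicate 3 was the lowest array by more than 1 on the log2 scale. The 95% interval of the Mki67 change was -0.30 to 2.49.

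The 39 genes differed in where after replicate 1 and before replicate 3 stood. Before replicate 3 was the lowest before array in 22 of the 39 genes (56.4%), against 28.4% of all genes, and the highest in 14 (35.9%), against 50.2% of all genes. In 11 of the 14 genes in which it was the highest (Ccnb2, Cdk1, Aurka, Bub1, Mad2l1, Birc5, Cenpa, Ndc80, Nuf2, Spc24 and Pttg1), after replicate 1 was below every before array, which is 78.6% of the 14, against 47.0% of the 15105 genes in all with before replicate 3 highest, and in 0 of the 14 it was above. In 9 of the 22 genes in which it was the lowest (Plk1, Cdca8, Cenpe, Cenpf, Kif4, Tpx2, Kif23, Espl1 and Mki67), after replicate 1 was above every before array, which is 40.9% of the 22, against 26.7% of the 8545 genes in all with before replicate 3 lowest, and in 3 (Bub3, Kif11 and Ect2) it was below. As a share of the whole list, the first arrangement held for 28.2% of the 39 genes, near the 23.6% of all genes, and the opposite arrangement for 23.1%, against 7.58% of all genes. The median SD of the 39 genes was 1.16 over the after arrays (n = 3) and 0.47 over the before arrays (n = 3). The SD over the after arrays was at least 1 in 27 of the 39 genes. These SDs were not counted over all genes, so they have no reference.

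Other genes of mitosis, from 11 lists of textbook membership, had a smaller median difference than the 39. Of 167 listed genes 155 were measured, and their median log2 change was -0.83, against -1.54 over the 39 and -0.16 over all genes. With 6 arrays, 2 of the 155 fell at an adjusted p under 0.05 from limma and 0 rose, against 0.651% of all genes lower and 1.23% higher, so that these calls were few in both. They were Anapc15, a subunit of the anaphase-promoting complex (-1.76, adjusted p = 0.0401), and Ska2, a kinetochore gene (-1.29, adjusted p = 0.0478). Both also passed without after replicate 1, but of the fits that left out another array, the one without before replicate 2 had 1 lower call among the 155 and the others had 0. At an unadjusted p under 0.05, 76 of the 155 were lower and 6 higher, against 19.7% of all genes lower and 11% higher. Without after replicate 1, 61 of the 155 fell at an adjusted p under 0.05 from limma and 0 rose, against 7.49% of all genes lower and 7.81% higher.

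The centromere list, which holds the inner kinetochore subunits and the genes that load Cenpa, had the lowest median of the 11 lists, at -1.84 over 14 measured genes. In 13 of the 14 every after array was below every before array, and after replicate 1 was likewise below the before range in 13, against 28.2% and 41.8% of all genes. At an unadjusted p under 0.05, 13 of the 14 were lower, against 19.7% of all genes, and 0 passed the adjusted threshold of limma. Its lowest gene was Cenpm, with log2 signals of 10.12, 8.22 and 7.93 after and 12.999, 12.005 and 11.70 before (log2 change -3.48, limma adjusted p = 0.0678). The highest was Cenpo at -0.57. The other outer kinetochore and checkpoint genes had a median of -1.19 (16 genes, from -2.91 for Trip13 to 0.51 for Zwint), and the other kinesins and spindle proteins -1.14 (18 genes, from -2.70 for Kif18a to 1.36 for Numa1).

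The genes of the anaphase-promoting complex and its regulators had a median log2 change of -0.43 over 17 genes, and the cohesin list had -0.20 over 14 genes, both nearer to the median of all genes. Their lowest genes were Ube2s (-1.97) and Esco2 (-3.04), which passed the threshold of limma in neither case (adjusted p = 0.127 and 0.172). Their highest genes were Anapc2 (0.76) and Stag2 (0.57). The mean was higher in 4 of the 17 and in 6 of the 14 genes, against 9548 of all 30098 genes. The complex's inhibitor gene Fbxo5 had a log2 change of -1.78 and its activator gene Fzr1 of -0.74 (limma adjusted p = 0.139 and 0.181). Fbxo5 fell by 2.43 without after replicate 1 (limma adjusted p = 0.00491). The medians were -0.94 over 14 mitotic entry regulators, -0.70 over 8 condensin genes and -0.66 over 13 other cytokinesis genes. They were -0.59 over 11 centriole duplication genes and -0.47 over 13 augmin and gamma-tubulin ring genes. The cytokinesis list was split, with lower means in 7 genes and higher in 6, from -2.36 (Cep55) to 1.81 (Pdcd6ip). In 5 of its genes every after array was above every before array, against 11.8% of all genes. In 3 every after array was below, against 28.2%.

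In the list of MuvB, B-Myb, E2F and NF-Y regulators and their partners, Mybl2, which encodes B-Myb, had the lowest log2 change. Its log2 signals were 13.94, 8.66 and 9.20 after and 14.39, 13.77 and 13.07 before. Its log2 change was -3.15 with 6 arrays (limma adjusted p = 0.230), and it fell by 4.82 without after replicate 1 (adjusted p = 0.00647). In Mybl2 after replicate 1 lay near the before arrays and the other after arrays far below. The MuvB subunit genes Lin9, Lin37 and Lin54 had log2 changes of -0.89, -0.59 and -0.23 (limma adjusted p = 0.0622, 0.107 and 0.551), and the median of the 17 measured genes of this list was -0.59. Rbbp4, also a MuvB subunit gene, had a log2 change of -1.30 (limma adjusted p = 0.127), with every after array below every before array. Of the NF-Y genes, Nfyb had a log2 change of -1.84 (limma adjusted p = 0.0643) and fell by 2.18 without after replicate 1 (adjusted p = 0.0101), and Nfya and Nfyc had log2 changes of 0.32 and -0.12 (adjusted p = 0.641 and 0.887). Rbbp4, Nfyb and Nfyc were chosen for mention after their values were seen. Foxm1 was not analysed here.

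The G1 cyclins and their kinases, which act before DNA replication, had a median log2 change of -0.06 over 7 genes. Ccnd2, a D-type cyclin gene, had log2 signals of 10.94, 14.70 and 15.03 after and 7.60, 8.21 and 6.90 before, with all after arrays above all before arrays and a log2 change of 5.99 (limma adjusted p = 0.0669). Ccnd2 rose by 7.30 without after replicate 1 (limma adjusted p = 0.00264). Ccne1, the E-type cyclin gene of S-phase entry, had log2 signals of 10.88, 8.37 and 8.03 after and 11.64, 12.22 and 11.67 before. All its after arrays were below all its before arrays, with a log2 change of -2.75 (limma adjusted p = 0.118). Ccne1 fell by 3.64 without after replicate 1 (limma adjusted p = 0.00368). Over 8 housekeeping genes the median log2 change was 0.18, but single genes went both ways, from -1.88 for Hprt (limma adjusted p = 0.171) to 4.19 for B2m, which passed as higher (adjusted p = 0.0376).

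**Figure D5:**
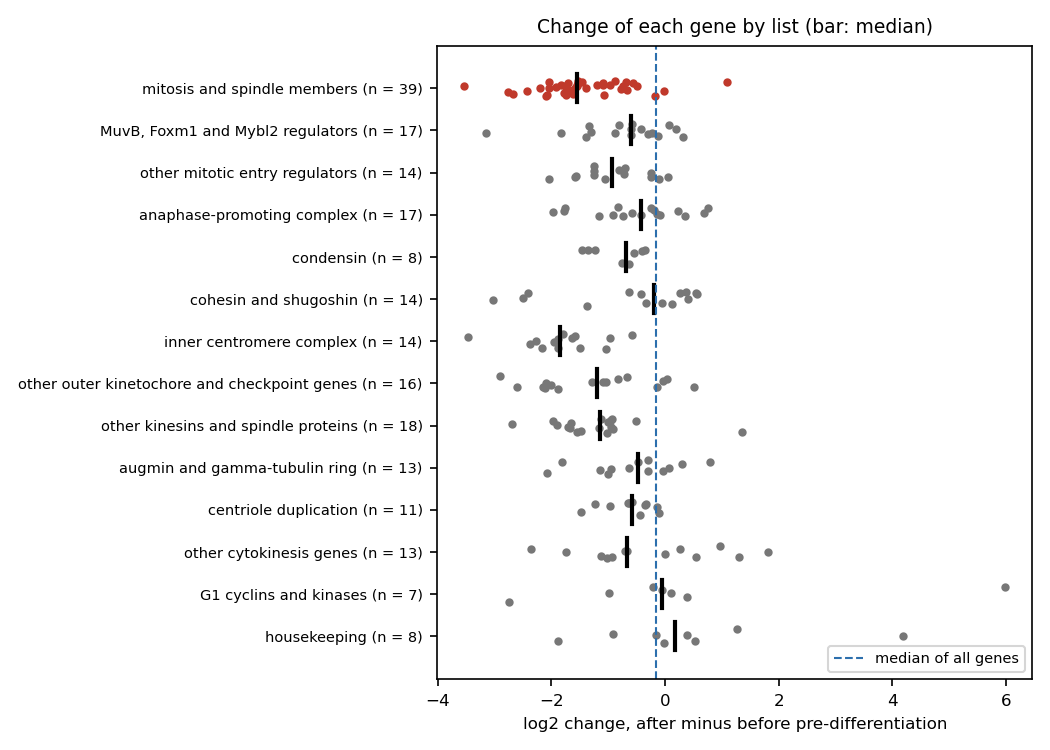
Log2 change, after minus before pre-differentiation (x axis), of each gene in the mitosis and spindle list (red), in 11 other lists of mitosis genes and in 2 comparison lists (grey), with the median of each list as a black bar and the median of all genes as a dashed line. The mitosis and spindle list has a median of -1.54, and only the inner centromere list, at -1.84, lies lower.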

How the data were processed

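Total RNA of encapsulated R1 mESC aggregates was measured on 6 Clariom D arrays, 3 after and 3 before pre-differentiation. The log2 signals deposited by the authors came from Transcriptome Analysis Console and were used without further normalization. Its version, and how it summarized probes and corrected for background, were not given in the sources used here. In all, 72688 rows were deposited. The 31 rows whose identifier starts with AFFX were left out and 72657 were tested, of which 6701 are control genes and spike-ins. Rows were named from the platform annotation: 30638 rows have 1 gene symbol and 2176 have several, which name no gene here. Symbols were updated in 330 rows through the RefSeq gene table. For the 427 genes with more than 1 row, the brightest row was used. The table gives no detection call, so the background level (4.24) was the signal below which 95% of 1527 olfactory and vomeronasal receptor genes had their mean. The precision is limited by the number of arrays.

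After and before arrays were compared by a two-sided moderated test (lmFit, then eBayes, from limma 3.58.1 under R 4.3.3). P-values were adjusted by Benjamini-Hochberg over all tested rows, and the threshold was 0.05. The fit was tested on simulated data. With 3 arrays against 3, an exact permutation test of a single gene cannot go below p = 0.1 and was not used. The members and lists were chosen with earlier results of these data known. Any of the 40 members may be named. Of the other lists, the genes named are up to 2 past the threshold in each direction, the lowest, the highest and a set of fixed regulators. Ccnb1 and Foxm1, which no single-symbol row names in the annotation used, were not analysed here. The alternatives were quantile normalization, median centring, leaving out dim rows, robust variances with a trend, the equal-variance Student test, a minimum of 2-fold, averaging the rows of each gene, a block for the replicate number, the fit without control rows, and leaving out each array. Promoter motifs were searched as exact letters on both strands.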

Additional observations from a re-analysis of the deposited data

How the results depend on the processing

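The median of the list stayed below 0 under each alternative run. The median log2 change over the mitosis and spindle genes was -1.30 after quantile normalization, -1.36 with each array centred on its median, and between -2.22 and -1.19 when 1 array was left out. The number of these genes that passed as lower was 0 under each alternative except the methods' unadjusted Student test (6) and the fits that left out 1 array (between 0 and 26, with 26 reached without after replicate 1). The count of genes with every after array below every before array was 14 as deposited (35.9%, against 28.2% of all genes). It was 11 after quantile normalization and 10 after centring, for which the share of all genes was not counted. With 1 array left out it was between 14 and 37 (37 without after replicate 1 and 22 without before replicate 3). The log2 change of Cenpe turned positive after quantile normalization (0.25), after centring (0.17) and without after replicate 2 (0.16), after replicate 3 (0.32), before replicate 1 (0.14) or before replicate 2 (0.44), with a range of -0.62 to 0.44 over the fits with 1 array left out, and that of Cdc25b was 0.0062 after centring. Of all genes, 371 were higher and 196 lower. The counts were 638 and 416 among rows above background, 137 and 30 with a trend and robust variances, 2317 and 5539 by the methods' unadjusted Student test and 0 and 0 after its Benjamini-Hochberg adjustment. Without control rows 377 genes were lower, and leaving out 1 array gave between 0 and 2351 higher and between 0 and 2255 lower. Among the 155 related genes, the 2 lower calls became 4 among rows above background, 0 with a trend and robust variances, 44 (and 6 higher) by the methods' unadjusted test, 0 after its adjustment, and between 0 and 61 with 1 array left out. The replicate number as a block left 0 genes higher and 0 lower of all genes, and 0 of the mitosis and related genes. Deviations of same-numbered after and before arrays correlated at -0.03, 0.14 and -0.08. With 3 arrays per group these correlations cannot decide whether same-numbered arrays were paired. The labels give a replicate number and name no pairing, so the main fit used none. The cause of these shifts was not tested.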
